A study of Mus musculus with 10 samples.

Results

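The 10 genes described here make, package and break down catecholamines or supply the cofactor that tyrosine hydroxylase needs, and they were taken by symbol from the 25006 genes listed for each neuron. They are Th, Ddc, Dbh and Pnmt (synthesis), Gch1, Pts, Spr and Qdpr (cofactor), Slc18a2 (packaging) and Maoa (breakdown), and each symbol matched 1 Ensembl identifier. The study aspirated cytoplasmic and nuclear RNA through a glass pipette from 10 single neurons in acute brainstem slices and made 1 library from each. The neurons lay in the nucleus of the solitary tract (NTS), which receives sensory input from the viscera, of 3-month-old C57BL/6 mice carrying LepRb-Cre; Halo-eYFP, so that a yellow fluorescent protein marked cells of the leptin receptor lineage. A Cre reporter of this kind can also stay on in cells that used the Cre promoter earlier in life. By firing property, as labelled, 5 neurons were type 1 (named 1-1, 1-2, 4-3, 8-2 and 9-1) and 5 were type 2 (6-2, 10-1, 10-3, 9-2 and 9-4), and no group without the reporter was analysed here. No label says which neurons came from the same mouse or what the 2 numbers of a name stand for. Each firing type was therefore treated as 1 sample, with no test between types, and every SD below is the spread between cells.

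Catecholamines are made from tyrosine in a fixed order. Tyrosine hydroxylase makes DOPA, the aromatic amino acid decarboxylase turns DOPA into dopamine, the vesicular monoamine transporter loads dopamine into vesicles, dopamine beta-hydroxylase inside the vesicle makes noradrenaline, and phenylethanolamine N-methyltransferase makes adrenaline. Tyrosine hydroxylase cannot work without tetrahydrobiopterin, which is built from GTP in successive steps and regenerated after each use. The NTS is known for its noradrenergic and adrenergic cell groups, and some brain neurons elsewhere are known to contain the decarboxylase without the hydroxylase.

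Levels are given as CPM, a gene's counts scaled to a common library total of summed gene counts. Detection required both a level of 10 CPM and 3 counts. Libraries held 9796799 to 41844825 gene counts and 5315 to 7367 detected genes. Libraries also differed in undetected genes, and a gene not expressed cannot be told apart from one lost from the library. Among genes that all 9 other neurons showed (median 50 to 300 CPM), 1.48% (8-2) to 14% (1-1) were undetected in the neuron left out. Of these genes none had a count of exactly 0 in the 6 libraries above 20000000 counts, against 0.697% to 9.04% in the 4 libraries below (1-1, 1-2, 4-3 and 6-2), so a trace below 1 CPM was not read as presence. Of 14 microglial markers, 6 were detected in 1-2, 13 in 6-2, 7 in 9-2 and 13 in 9-4 (summed levels of 524 to 1889 CPM), against 0 to 2 in the other 6 neurons (0.0668 to 78.4 CPM). Of 12 pan-neuronal markers, from 9 (10-1 and 9-2) to 12 were detected in each neuron. Snap25, a synaptic protein gene found across neurons, was at 1546 to 3123 CPM in all 10. The least often detected were Rbfox3 and Syt1, each in 7 neurons. The Poisson intervals and depth limits below reflect counting error alone, because reads copied by amplification do not stand for separate molecules. Binomial intervals and bounds on shares of neurons take the neurons as independent draws, which the labels cannot show.

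**Figure D1:**
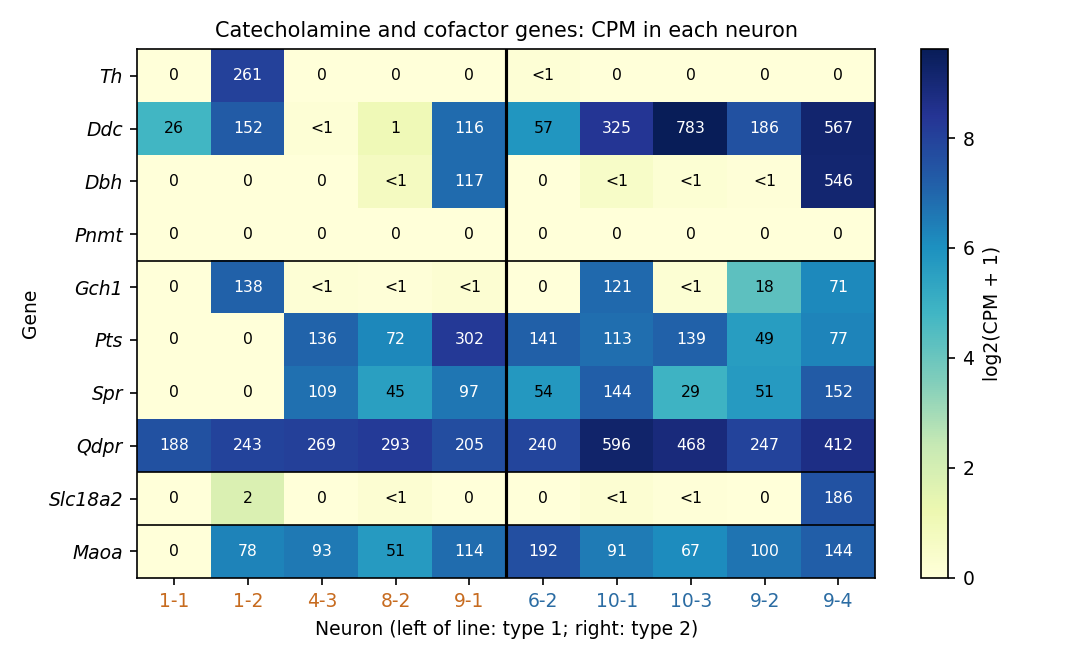
CPM of the 10 genes (rows, in the order synthesis, cofactor, packaging and breakdown, separated by lines) in each neuron (columns, type 1 left and type 2 right of the vertical line), coloured by log2(CPM + 1). Qdpr filled its whole row, Th, Dbh and Slc18a2 stood in 1 or 2 neurons each, and Pnmt was at 0 throughout.

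At the detection level, no single neuron held a full catecholamine pathway by transcript once vesicle packaging or the cofactor genes were counted. The neuron 1-2 was the only one with both Th and Ddc detected, the pair that makes dopamine (1 of 10 neurons, 10.0%, exact binomial 95% interval 0.253 to 44.5%). It lacked Dbh (0 counts), had Slc18a2 at 2.45 CPM, below the detection level, and had 0 counts of both Pts and Spr. The neuron 9-4 held the longest list, with 8 of the 10 genes detected, and lacked only Th and Pnmt. Packaged dopamine (Th, Ddc and Slc18a2), packaged noradrenaline (these and Dbh) and the adrenaline set (with Pnmt) were each complete in 0 of 10 neurons (upper bound 30.8%), as was the set of Th and Ddc with Gch1, Pts, Spr and Qdpr.

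The cofactor branch gave another result. Gch1, Pts and Spr, which together carry out the synthesis of tetrahydrobiopterin, were all detected in 3 of 10 neurons (30.0%, interval 6.67 to 65.2%): 10-1, 9-2 and 9-4, all of type 2. The same 3 neurons also had Qdpr and Pcbd1, the recycling enzymes, and all 3 had Ddc, but none had a count of Th. In 6 of the other 7 neurons Gch1 was among the missing genes. The exception was 1-2, the Th neuron, where Gch1 was present and the next 2 enzymes were not detected.

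**Figure D2:**
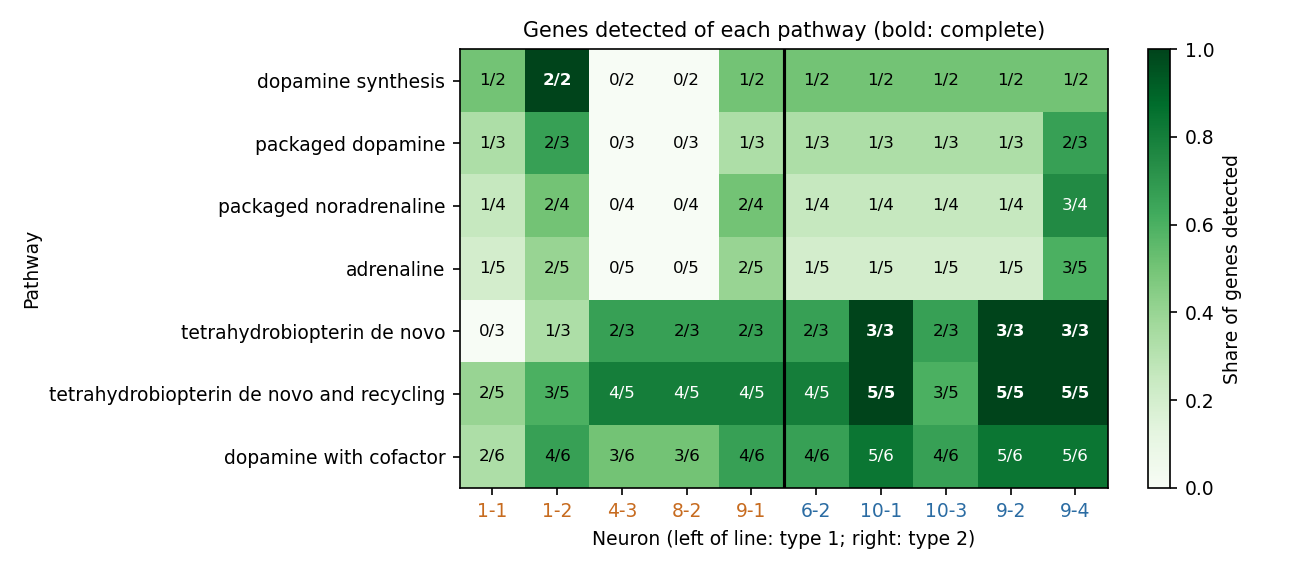
Number of genes detected out of all genes of each pathway (rows) in each neuron (columns, type 1 left and type 2 right of the line), coloured by the share detected. Bold cells are complete: dopamine synthesis in 1-2 alone, and both tetrahydrobiopterin sets in 10-1, 9-2 and 9-4.

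Microglial transcripts stood beside these counts. Both the neuron with Th (1-2) and the one with 8 genes (9-4) were among the 4 with at least 5 microglial markers. Among the 6 neurons left without those 4, a choice made after the values were seen, the dopamine pair was complete in 0 neurons and the tetrahydrobiopterin set in 1, which was 10-1. The part of microglial RNA in the detection of these genes was not tested.

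Tyrosine hydroxylase sets the pace of the whole pathway, and its gene was the most restricted of the synthesis enzymes that had counts. Of the 11923 genes measured (a mean of at least 1 CPM), 15.3% were likewise detected in exactly 1 neuron. Th (ENSMUSG00000000214, GRCm38 chromosome 7, 142892752 to 142931128, minus strand) had 3623 counts in 1-2, or 261 CPM (Poisson 95% interval 253 to 270.1). It had 1 count in 6-2 (0.082 CPM) and 0 counts in each of the other 8 neurons. A count of 0 allows, by depth, at most 0.306 CPM in 4-3, the shallowest library, and 0.0717 CPM in 8-2, the deepest. The single level was not marginal: Th ranked 874th of all listed genes in 1-2, above Ddc and Gch1 in that neuron.

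The decarboxylase gene was far broader. Ddc (ENSMUSG00000020182, chromosome 11, 11814101 to 11898144, minus strand) encodes an enzyme shared with the serotonin pathway. In type 1 it was at 26.3 CPM in 1-1, 152 in 1-2, 0.102 in 4-3, 1.03 in 8-2 and 116 in 9-1. In type 2 it was at 56.8 CPM in 6-2, 325 in 10-1, 783 in 10-3, 186 in 9-2 and 567 in 9-4. All 5 type 2 neurons were above the detection level and 4 of them were above every type 1 neuron, but 6-2 was below 1-2 and 9-1, so the ranges overlapped. The type 1 mean was 59.2 ± 70.5 CPM and the type 2 mean 384 ± 293 CPM (± SD over 5 neurons). Summed over neurons it was 55.4 CPM (Poisson interval 54.1 to 56.8) against 438 CPM (435 to 442). On the log2(CPM + 1) scale type 2 minus type 1 was 4.09, and from the summed counts it was 2.96. The 4.09 became 3.12 without 4-3 and 3.34 without 8-2, the type 1 neurons below the detection level. In 10-3 Ddc was the 139th most abundant gene, in a neuron with no count of Th.

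Ddc was detected without Th in 7 neurons. Another way of using the decarboxylase, with a tryptophan hydroxylase to make serotonin, had little transcript of that hydroxylase. Tph2, the brain form, was at most 0.0637 CPM, and Tph1 was detected in 10-3 alone, at 27.6 CPM. The serotonin transporter gene Slc6a4 and the serotonergic factor gene Fev had 0 counts in all 10 neurons.

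Dbh (ENSMUSG00000000889, chromosome 2, 27165233 to 27183200, plus strand), whose product defines noradrenaline neurons, was detected in 1 neuron of each type. Of all measured genes, 10.4% were detected in exactly 2 neurons. Its level was 117 CPM in 9-1 (Poisson interval 113 to 121) and reached 546 CPM in 9-4 (538 to 554), the 272nd most abundant gene there. In the other 8 neurons it ranged from 0 to 0.645 CPM. Both Dbh neurons have 9 as the first number of their name, whereas 9-2, which shares that number, had 0.0351 CPM. The mean difference between types was 0.44, and it was -1.34 without 9-4 and 1.78 without 9-1, so the sign followed single neurons.

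Pnmt (ENSMUSG00000038216, chromosome 11, 98386450 to 98388181, plus strand), the adrenaline enzyme, had 0 counts in all 10 neurons. Over the 261837355 counts of all libraries together that allows at most 0.0115 CPM by depth.

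The vesicular transporter gene was as restricted as Th, like 15.3% of measured genes, but in another neuron. Slc18a2 (ENSMUSG00000025094, chromosome 19, 59260896 to 59296012, plus strand) reached 186 CPM in 9-4 (Poisson interval 181 to 191) and stood at 2.45 CPM, from 34 counts, in 1-2. It was at 0 to 0.167 CPM in the other 8, and the difference between types of 1.15 became -0.34 without 9-4. Slc18a2 and Dbh were thus both detected in 9-4, while Dbh stood without the transporter in 9-1 and Th without it in 1-2. The endocrine form of the transporter, Slc18a1, was detected in 6-2 alone, at 41.2 CPM, and had 0 counts elsewhere.

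Because the breadth of detection differed so much between members, their RefSeq promoter windows (250 bases before to 50 after the annotated start, GRCm38.p6) were read. Windows were found for 9 of the 10 genes, and Ddc had 2. Below are the first 260 bases of 4 of them: the pair found in 1 neuron each (Th and Slc18a2), the cofactor gene missing most often (Gch1), and the gene found in every neuron (Qdpr). They run 5′ to 3′ on the gene's strand and end 10 bases after the start; capitals mark matches, on either strand, to the letters of the cAMP response element (TGACGTCA, its own reverse complement), the TATA box (TATAAA) or the CCAAT box (CCAAT). Positions are counted from the start, with -1 the base before it.
Th, chr7:142899986-142900245, minus strand: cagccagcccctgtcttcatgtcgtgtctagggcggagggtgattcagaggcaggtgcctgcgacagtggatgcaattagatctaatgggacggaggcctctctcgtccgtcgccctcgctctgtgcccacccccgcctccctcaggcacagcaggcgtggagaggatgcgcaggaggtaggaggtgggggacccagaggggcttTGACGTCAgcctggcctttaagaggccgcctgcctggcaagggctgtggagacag
Slc18a2, chr19:59260628-59260887, plus strand: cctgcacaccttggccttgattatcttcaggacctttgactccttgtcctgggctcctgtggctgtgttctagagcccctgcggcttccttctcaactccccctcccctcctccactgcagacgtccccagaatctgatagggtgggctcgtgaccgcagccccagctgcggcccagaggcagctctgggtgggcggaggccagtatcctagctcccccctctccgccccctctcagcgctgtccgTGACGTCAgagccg
Gch1, chr14:47189404-47189663, minus strand: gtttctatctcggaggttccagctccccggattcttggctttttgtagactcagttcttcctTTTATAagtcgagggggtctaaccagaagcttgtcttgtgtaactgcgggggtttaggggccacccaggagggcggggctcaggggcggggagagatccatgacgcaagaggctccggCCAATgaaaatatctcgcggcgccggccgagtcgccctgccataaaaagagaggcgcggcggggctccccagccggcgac
Qdpr, chr5:45450220-45450479, minus strand: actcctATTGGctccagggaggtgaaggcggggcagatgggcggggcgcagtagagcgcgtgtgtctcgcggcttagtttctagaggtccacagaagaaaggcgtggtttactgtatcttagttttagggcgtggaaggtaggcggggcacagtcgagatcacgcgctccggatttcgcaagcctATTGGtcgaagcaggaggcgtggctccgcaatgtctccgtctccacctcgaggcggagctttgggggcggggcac

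The full cAMP response element began at -45 in Th and at -4 in Slc18a2, and no other member window held it; 1.79% of all 32851 windows do. The TATA letters lay at -188 in Gch1 and at -68 in the upstream window of Ddc (13.6% of windows hold them), and the CCAAT letters lay in the windows of Gch1, Qdpr, Dbh and the downstream start of Ddc (37.4% of windows). A match is a run of letters and not a shown binding site, and Th and Slc18a2, which share the element, were not detected in the same neuron.

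Windows also differed in CpG content, given as observed over expected CG pairs. The broadly detected genes Qdpr (0.885), Pts (0.849), Maoa (0.602) and Spr (0.575) had higher ratios than Th (0.484), Slc18a2 (0.398) and Dbh (0.0916). Gch1 and Ddc went against this order: Gch1 had 0.738 and was detected in 4 neurons, and both Ddc windows were low (0.164 and 0.228) while the gene was detected in 8. Of all windows, 35.8% had a ratio of at least 0.6. The relation of this ratio to breadth of detection over all genes was not tested.

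**Figure D3:**
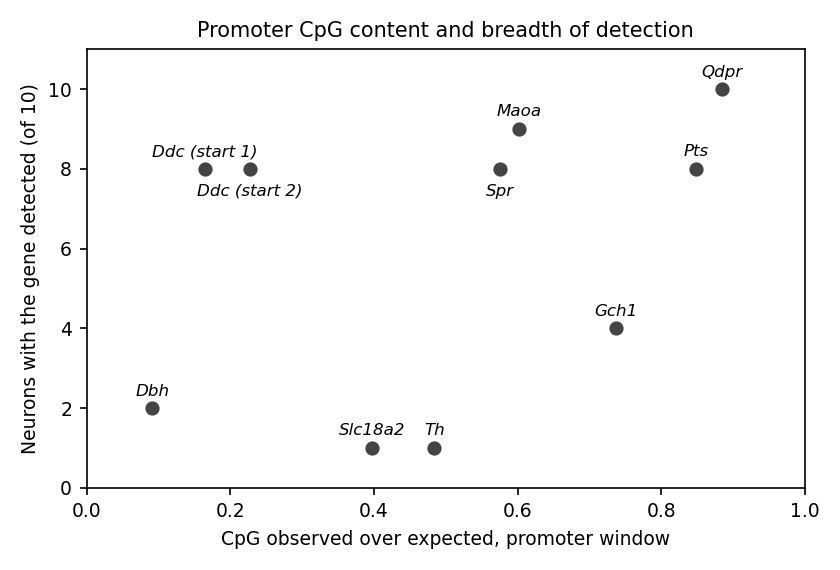
Ratio of observed to expected CG pairs in each promoter window (horizontal axis) against the number of neurons, of 10, in which the gene was detected (vertical axis), with 1 point per window. Th, Slc18a2 and Dbh lie low at ratios of 0.0916 to 0.484, and Ddc is the gene with a low ratio and broad detection.

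Gch1 (ENSMUSG00000037580, chromosome 14, 47153895 to 47189413, minus strand) encodes GTP cyclohydrolase, which commits GTP to the cofactor. In type 1 it was at 138 CPM in 1-2 and at 0 to 0.159 CPM in the other 4. In type 2 it was at 121 CPM in 10-1, 18.1 in 9-2 and 71.2 in 9-4, and at 0.138 in 10-3 and 0 in 6-2. It was thus detected in 1 of 5 type 1 neurons (20%, interval 0.505 to 71.6%) and 3 of 5 type 2 neurons (60.0%, 14.7 to 94.7%). All 4 Gch1 neurons also had Ddc, and 1 of the 4 had Th. The difference, just under 2.00, went to 3.40 without 1-2 and to 1.15 without 10-1. Gchfr, whose protein binds and feedback-inhibits this enzyme, was at most 0.11 CPM.

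Pts and Spr encode the next 2 enzymes, 6-pyruvoyltetrahydropterin synthase and sepiapterin reductase. Pts (ENSMUSG00000032067, chromosome 9, 50521617 to 50528724, minus strand) had 0 counts in 1-1 and 1-2 and was at 136 CPM in 4-3, 72.4 in 8-2 and 302 in 9-1. In type 2 it was at 141 CPM in 6-2, 113 in 10-1, 139 in 10-3, 48.6 in 9-2 and 76.7 in 9-4. Spr (ENSMUSG00000033735, chromosome 6, 85130176 to 85137766, minus strand) likewise had 0 counts in 1-1 and 1-2, and was at 109 CPM in 4-3, 45.1 in 8-2 and 96.9 in 9-1. Its type 2 levels were 53.5 CPM in 6-2, 144 in 10-1, 28.8 in 10-3, 51.0 in 9-2 and 152 in 9-4.

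Both genes therefore were either at 0 or well above the detection level (48.6 to 302 CPM for Pts and 28.8 to 152 CPM for Spr), with nothing between. The differences of 2.30 for Pts and 2.38 for Spr came from the 2 zeros, which lie in the 2 neurons whose first number is 1. Without both neurons the differences were -0.57 and -0.15, a choice made after the values were seen. Leaving out either of these neurons gave 1.22 and 1.43. Over 10 neurons Pts and Spr had a Pearson r of 0.94 on the log2 scale, and over the 8 neurons with counts it was 0.14. Both zero libraries are among the 4 of lower depth. Of middle-level genes these had 14% (1-1), 8.55% (1-2), 12.6% (4-3) and 1.83% (6-2) undetected. The 6 deeper libraries ranged from 1.48% (8-2) to 9.04% (9-1), and the cause of the zeros was not tested. Cbr1 and Akr1b3, whose reductases can stand in for parts of the sepiapterin reductase step, were detected in all 10 neurons, at 91.0 to 420 and 14.9 to 118 CPM, and so also in 1-1 and 1-2.

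Qdpr (ENSMUSG00000015806, chromosome 5, 45434021 to 45450236, minus strand), the dihydropteridine reductase that regenerates the cofactor, was the constant member. In type 1 it was at 188 CPM in 1-1, 243 in 1-2, 269 in 4-3, 293 in 8-2 and 205 in 9-1, and in type 2 at 240 CPM in 6-2, 596 in 10-1, 468 in 10-3, 247 in 9-2 and 412 in 9-4. The highest 3 values were type 2, while 6-2 and 9-2 lay inside the type 1 range. The type 1 mean was 239 ± 43.4 CPM and the type 2 mean 393 ± 151 CPM, a difference of 0.64 on the log2 scale. Qdpr was detected in 10 of 10 neurons, as were 14.2% of the 11923 genes measured (a mean of at least 1 CPM). Per length, as TPM (counts divided by GENCODE exon length and scaled to a common total), Qdpr was the highest of the 10 genes in all 10 neurons, at 349 to 1050. The highest per-length levels of the others were 634 for Dbh in 9-4, 566 for Ddc in 10-3 and 370 for Th in 1-2. Next came 167 for Pts in 9-1, 142 for Maoa in 6-2, 134 for Spr in 9-4, 111 for Slc18a2 in 9-4 and 73.9 for Gch1 in 1-2. Pcbd1, the dehydratase of the same cycle, was detected in 9 neurons, from 35.1 to 376 CPM, and was at 0.138 CPM in 10-3.

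Maoa (ENSMUSG00000025037, chromosome X, 16619698 to 16687818, plus strand), a mitochondrial enzyme that oxidises noradrenaline, serotonin and dopamine, was detected in 9 neurons. Type 1 levels were 0 CPM in 1-1, 78.4 in 1-2, 92.7 in 4-3, 50.7 in 8-2 and 114 in 9-1. Type 2 levels were 192 CPM in 6-2, 90.6 in 10-1, 67.1 in 10-3, 100.1 in 9-2 and 144 in 9-4. Apart from the zero in 1-1 the types overlapped, with means of 67.2 ± 44.1 and 119 ± 49.7 CPM and a difference of 1.73, which was 0.46 without 1-1. Every neuron with Th or Dbh had Maoa, and so did 4-3 and 8-2, which had none of the 4 synthesis enzymes detected.

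**Figure D4:**
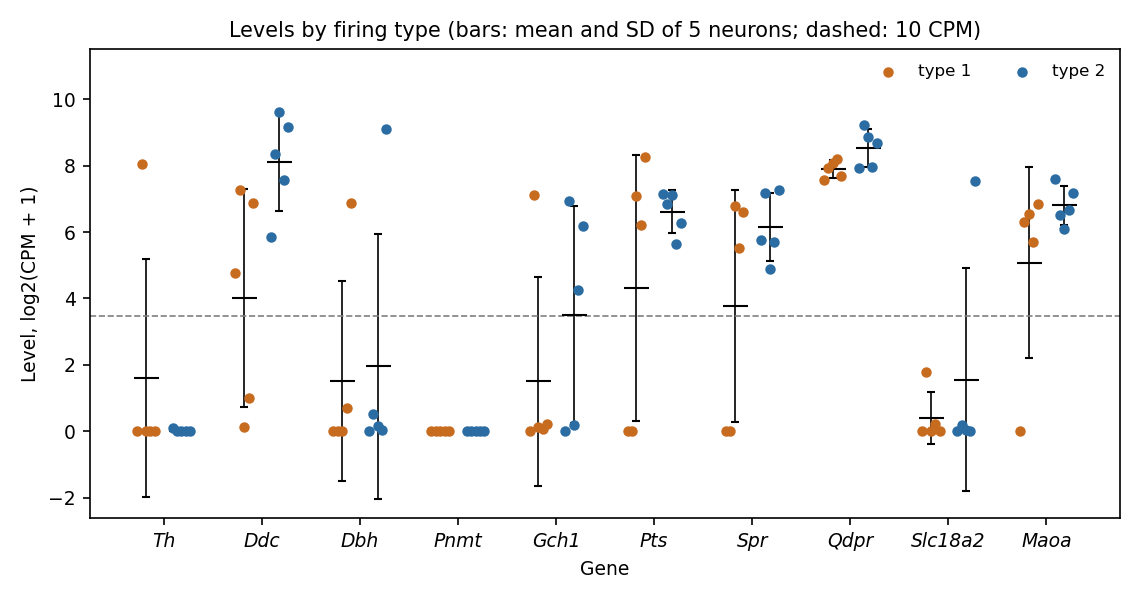
Level of each gene, as log2(CPM + 1), in the 5 type 1 neurons (orange) and 5 type 2 neurons (blue); horizontal bars are means, vertical bars 1 SD between neurons, and the dashed line marks 10 CPM. Ddc lies higher in type 2, and the long type 1 bars of Pts, Spr and Maoa come from neurons at 0.

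Between firing types, 9 of the 10 genes were measured, the exception being Pnmt, and the 9 passed that filter in some cases through 1 neuron. Of the 9, 8 had the higher log2 mean in type 2 and Th alone in type 1 (-1.58). The median difference was 1.73, beside 0.24 over all 11923 measured genes, of which 56.2% were higher in type 2; scaling libraries by TMM moved that overall median to 0.39. The members' median was 1.05 without 1-1, beside 0.18 over all measured genes. In the 6 libraries above 20000000 counts it was 0.34, beside 0.0 over all measured genes. Without 9-4, 6 of the 9 were higher in type 2. The 14 microglial markers were also all higher in type 2 (median difference 2.41, 8 of them by at least 2). Without the 4 neurons with at least 5 of them detected, the members' median was 1.31, beside 0.0 over all measured genes. There 7 of the 9 members were higher in type 2, and those past 2 were Ddc and Gch1. A difference of at least 2 with type 2 higher was reached by Ddc, Pts and Spr, and by 13.5% of all measured genes. In the opposite direction it was reached by 0 of the 9, and by 7.78% of measured genes. In no member were the types without overlap; 1.44% of measured genes had every type 2 neuron above every type 1 neuron and 0.587% the reverse. Ddc was the 1 member past 2 when either 1-1 was left out or 10 CPM was added before taking logs, and among the 3 neurons whose names begin with 9 its difference was 1.47.

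Neurons themselves differed in how much of the set they held. The number of members detected was 2 in 1-1, 4 in 4-3 and 8-2, 5 in 1-2, 6-2 and 10-3, 6 in 9-1, 10-1 and 9-2, and 8 in 9-4. In 1-1 only Ddc and Qdpr were detected. In 4-3 and 8-2 the 4 were Pts, Spr, Qdpr and Maoa, the general cofactor and breakdown genes. The libraries of lower depth (1-1, 1-2, 4-3 and 6-2) held 2 to 5 members, and the deeper ones held 4 to 8. The deepest library, 8-2, held 4. The part of depth in these counts was not tested.

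Of 5 other genes of monoamine breakdown 4 were measured, 2 with the higher mean in type 2 and 2 in type 1, and Maob and Aldh2 lay further apart between types than Maoa. Maob, the second monoamine oxidase, was at 26.5 CPM in 6-2, 328 in 10-1, 198 in 10-3, 128 in 9-2 and 240.3 in 9-4. In type 1 it was at 61.7 CPM in 1-1 and at 0 to 2.25 CPM in the other 4, a difference of 5.36. Aldh2, the mitochondrial aldehyde dehydrogenase that clears the aldehydes these oxidases make, was detected in 3 type 1 neurons (11.6, 59.9 and 51.1 CPM in 1-1, 8-2 and 9-1) and was at most 0.254 CPM in type 2 (difference -2.96). Akr1a1, an aldehyde reductase, was detected in all 10 neurons at 415 to 1366 CPM. Sult1a1, a sulfotransferase gene, had 45.6 CPM in 1-2 and 0 counts elsewhere.

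Among 6 other monoamine carriers 3 were measured, each in 1 or 2 type 2 neurons, and none of the 3 was detected in 1-2, the Th neuron. Slc6a3, the dopamine transporter, had 50.4 CPM in 10-1, with no other neuron above 0.382 CPM. Slc29a4, a low-affinity plasma membrane monoamine transporter, had 32.2 CPM in 6-2 and 132 in 10-3 (difference 2.50, which was 1.87 without 6-2 and 1.37 without 10-3). Slc6a2, the noradrenaline transporter that marks noradrenergic neurons, had 1 neuron with any count, 9-1, at 0.0319 CPM, and so was undetected in both Dbh neurons.

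Transcription factors of the noradrenergic lineage were mostly undetected. Of 8 genes on the list 2 were measured, and both had the higher mean in type 1. Phox2a was detected in 4-3 and 8-2 (22.6 and 31.1 CPM), which had neither Th nor Dbh, and no other factor of the list passed the detection level. None of 8 factors known for midbrain dopamine neurons was measured, and the highest level among them was 4.67 CPM, of Nr4a2 in 6-2.

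Of 7 partners in cofactor supply 6 were measured, 2 higher in type 2 and 4 in type 1, with Pcbd1 past a difference of 2 (-2.08; 176 ± 128 against 69.8 ± 61.8 CPM). That difference was -0.88 without 10-3, -1.72 without 1-2 and -1.95 without 8-2. Dnajc12, a co-chaperone of the hydroxylase family that includes tyrosine hydroxylase, was detected in every one of the 10 neurons. Its level was lowest in 1-2, the Th neuron, with 64.2 CPM, and highest in 1-1, with 502 CPM.

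**Figure D5:**
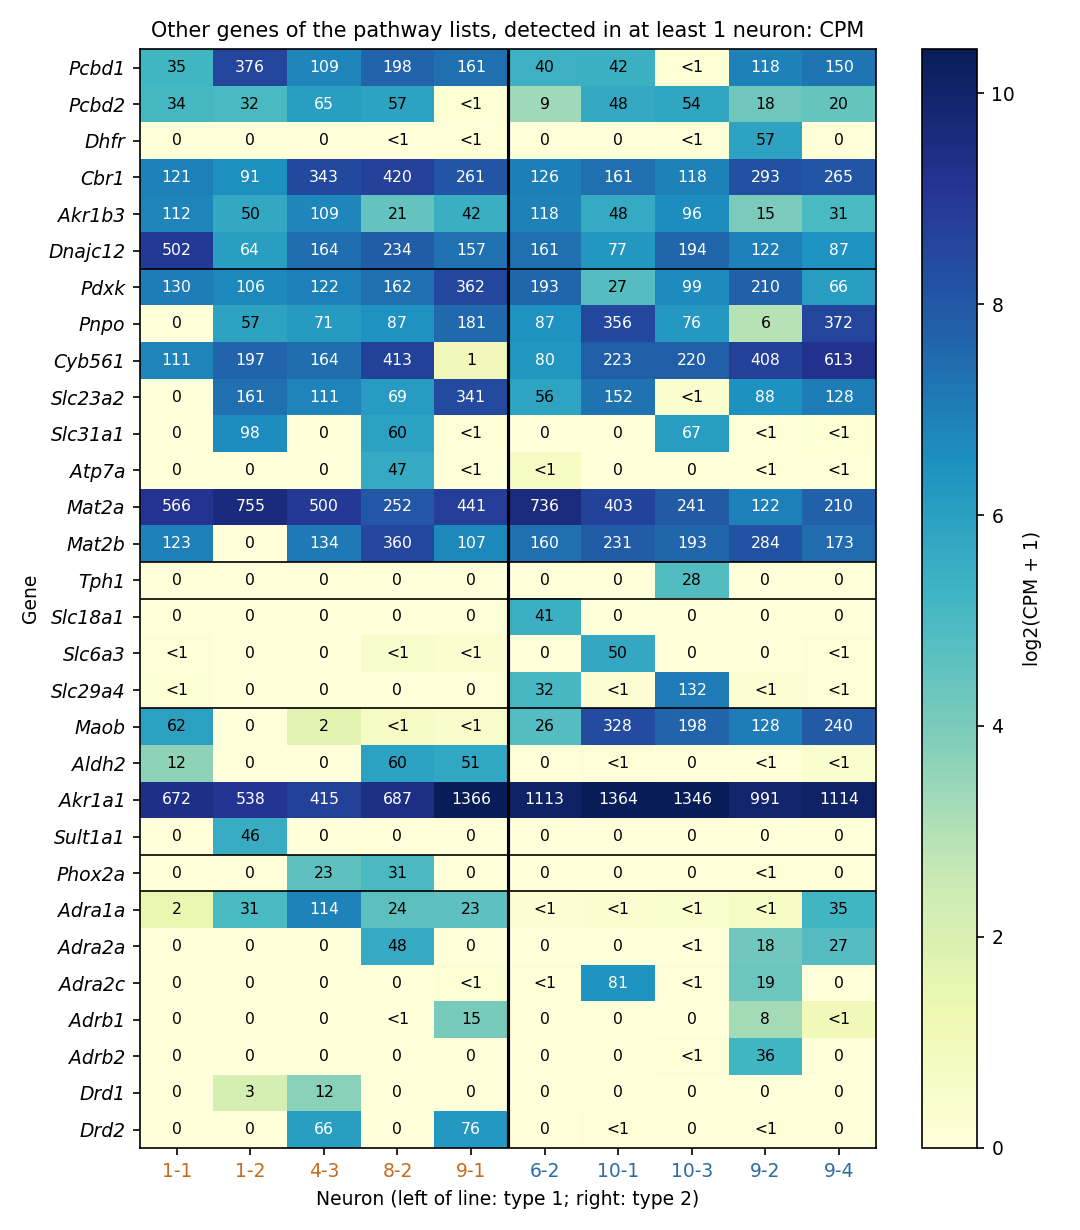
CPM of the other pathway genes detected in at least 1 neuron (rows, grouped by list: cofactor partners, other enzyme cofactors, hydroxylases, carriers, breakdown, transcription factors and receptors) in each neuron (columns, type 1 left and type 2 right of the line), coloured by log2(CPM + 1). Maob fills type 2 and 1-1, and carriers and receptors appear in few neurons each.

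For the 5 members detected in at least 5 neurons, the genes with the most similar levels were named by Pearson r of log2(CPM + 1) over 10 neurons, among 6409 genes detected in at least 5. For Ddc these were Gstm6 (0.92), Prdx5 (0.90) and Stradb (0.90). For Pts they were Sat2, Eif2b2 and Ppp1r16a (0.98, 0.97 and 0.97), and for Spr they were Pacsin2, Ppp1r16a and Eif2b2 (0.98, 0.97 and 0.97); all 4 of these genes were, like Pts and Spr, detected in 8 neurons and undetected in both 1-1 and 1-2. For Qdpr they were Psmc3, Arhgap1 and Rgs7 (0.91, 0.90 and 0.88), and for Maoa they were Sae1, Cryzl1 and Usp14 (0.97 each). The median best r of the candidate genes was 0.95, so values near it were usual. The share of candidates with a lower best r was 15.5% for Qdpr, 22.1% for Ddc, 79.6% for Maoa, 86.8% for Pts and 90.5% for Spr. The points share libraries and their depth.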

How the data were processed

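Each neuron has 1 deposited table of integer read counts by Ensembl gene, per the file headers, with no normalization and no rows for unassigned reads. The submitters' processing notes name cutadapt 1.13, STAR, HTSeq 0.6.1p1, DESeq2 and the mm10 build, without roles; no source used here gives the annotation release, the strand option or the amplification. Symbols matched 24942 of 25006 identifiers, and GENCODE M21 (GRCm38, the assembly mm10 names) gave positions and exon lengths. No member overlaps the exons of another counted gene.

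CPM used each library's summed counts. A difference is the mean log2(CPM + 1) of type 2 less that of type 1. With no animal named, no model, p-value or standard error was computed, although edgeR (4.0.16) supplied TMM factors. Shares have exact (Clopper-Pearson) and levels exact Poisson 95% intervals, and the limit for a count of 0 is 3 counts. A middle-level gene is one at a median of 50 to 300 CPM. The members and lists were chosen with earlier results of these data known. Named were all members, and from 8 other lists (59 genes) the 3 most abundant detected genes and those past a log2 difference of 2, with some further genes named after their values were seen. The marker lists covered 10 cell classes. Alternatives covered pseudocounts, scaling, thinning, detection levels, medians, sums and subsets of neurons. The calculation of the difference was checked on simulated counts with known folds. Python 3.11.15 and pandas 2.3.3 were used. Some genes of these lists are not reported here.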

Additional observations from a re-analysis of the deposited data

Results flagged for a closer look

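In 8 of 18 sets of 5 neurons (9 genes with counts, each in 2 firing types), 1 neuron stood far from the other 4 on the log2 scale, by a gap of more than 0.71 of the set's range. About 1 set in 20 would do so by chance if levels were normally spread, which genes at 0 in most neurons are not. No share of such sets over all measured genes is given here, so the count is not read as a result about these genes. Of all measured genes, 15.3% were detected in exactly 1 neuron. Within type 1, 1-2 stood apart for Th (261 CPM, the other 4 at 0), Gch1 (138 CPM, the others at most 0.159) and Slc18a2 (2.45 CPM, the others at most 0.167), the last below the detection level. Also within type 1, 9-1 stood apart for Dbh (117 CPM, the others at most 0.645). Within type 2, 9-4 stood apart for Dbh (546 CPM, the others at most 0.433) and for Slc18a2 (186 CPM, the others at most 0.144). The neuron 6-2 was set apart for Th by 1 count (0.082 CPM), which is no more than a trace. The low case was Maoa in 1-1, at 0 CPM against 50.7 to 114 CPM in the other type 1 neurons.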

How the results depend on the processing

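Counts of complete neurons depended on the detection level and on single neurons. With 1 count taken as detection, the dopamine pair was complete in 2 neurons, packaged dopamine in 1 and either tetrahydrobiopterin set in 7. At 1 CPM packaged dopamine was complete in 1 neuron (1-2), and at 50 CPM the set with recycling was complete in 1. The dopamine pair ranged from 0 to 1 over leaving out each neuron, and was 0 without the 2 neurons whose first number is 1, among libraries over 20000000 counts, and without the 4 neurons with microglial markers, where each tetrahydrobiopterin set was complete in 1. Members at a difference of 2 or more with type 2 higher numbered 1 with a pseudocount of 10, 5 with 0.1, and 1 to 4 over leaving out each neuron. The shares of all measured genes past 2 were 2.31% and 1.59% (higher in type 2 and in type 1) with a pseudocount of 10, and 24.4% and 12.5% with 0.1. The difference of Pts was negative by summed counts (-0.28), in neurons numbered 9 (-2.29), in libraries over 20000000 counts (-0.75) and without 1-1 and 1-2 (-0.57); that of Spr was negative in neurons numbered 9 (-0.14) and without 1-1 and 1-2 (-0.15). Subsets chosen after seeing the data were the microglial, depth and first-number-1 ones. The differences of Ddc, Gch1, Qdpr and Maoa were positive under all 21 alternatives each. No paired analysis was possible because the types share only 1 first number of the neuron names, 9, and the labels do not say what it marks.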

Other observations

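Receptors for catecholamines were sparse, and lay both in neurons with synthesis enzymes and in 4-3 and 8-2, which had none of these detected. Of 14 fixed receptor genes 7 were measured and 6 had 0 counts in all neurons. Adra1a, the alpha-1A adrenergic receptor, was detected in 4 type 1 neurons (31.3 CPM in 1-2, 114 in 4-3, 23.5 in 8-2 and 22.7 in 9-1) and in 9-4 of type 2 (35.3 CPM), with 0.164 to 0.561 CPM in the other type 2 neurons (difference -3.14). Drd2, the inhibitory dopamine receptor, had 65.6 CPM in 4-3 and 75.5 in 9-1, with no other neuron above 0.105 CPM (difference -2.41, which was -1.51 without 4-3 and -1.46 without 9-1). Adra2c had 80.6 CPM in 10-1 and 18.6 in 9-2 (difference 2.14, which was 1.10 without 10-1 and 1.61 without 9-2), and Adra2a, the autoreceptor of noradrenaline neurons, was at 47.7 CPM in 8-2, 17.5 in 9-2 and 26.7 in 9-4. The neuron 9-4 thus held Dbh, Slc18a2, Adra1a and Adra2a together, and 13 of 14 microglial markers, whose part was not tested.

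Genes that supply the other cofactors of the pathway ranged from broad to narrow. Of 8 fixed genes all were measured, 3 higher in type 2 and 5 in type 1, and none was past a difference of 2. Mat2a, which makes the methyl donor used by Pnmt, and Pdxk, which makes the pyridoxal phosphate used by the decarboxylase, were detected in all 10 neurons. Mat2b, the regulatory partner of Mat2a, was detected in 9 and had 0 counts in 1-2. The copper transport genes were the narrow ones: Slc31a1, which imports the copper that dopamine beta-hydroxylase needs, was detected in 3 neurons and Atp7a in 1, and neither in a Dbh neuron. Cyb561, which returns electrons to vesicle ascorbate for dopamine beta-hydroxylase, was at 613 CPM in the Dbh neuron 9-4, its highest level, and at 1.02 CPM in the other Dbh neuron, 9-1, its lowest.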
